A study of Mus musculus with 10 samples.

Results

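The 10 genes of the thioredoxin and peroxiredoxin system described here are the reductases *Txnrd1* and *Txnrd2*, the thioredoxins *Txn1* and *Txn2*, the thioredoxin-binding arrestin *Txnip* and the peroxiredoxins *Prdx1*, *Prdx2*, *Prdx3*, *Prdx5* and *Prdx6*. They were chosen by name from 27024 rows of gene expression values, and all 10 were found, each on its own row. The cells were bEnd.3, an immortalised mouse brain endothelial line labelled as wild type, grown in serum-containing medium. In all, 5 samples received 5 nM StcE, a secreted bacterial mucinase whose substrates are densely O-glycosylated proteins, and 5 received the same volume of saline, each for 16 h. The study used this experiment to ask which molecular changes follow mucin degradation in brain endothelial cells. The model is a single cell line, and no group given an inactive StcE was analysed here. The labels do not say whether replicates came from separate cultures, so that p-values measure the spread between these samples, which may be technical.

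Thioredoxins are small proteins whose paired cysteines reduce disulfides in other proteins. Thioredoxin reductases restore them with electrons from NADPH, and peroxiredoxins use reduced thioredoxin to remove hydrogen peroxide and other peroxides (*Prdx6* mainly uses glutathione). *Txnrd1*, *Txn1*, *Prdx1*, *Prdx2* and *Prdx6* act mainly in the cytosol and nucleus, *Txnrd2*, *Txn2* and *Prdx3* in mitochondria, and *Prdx5* in several compartments. *Txnip* binds thioredoxin and also limits glucose uptake, and its transcription follows glucose supply. In endothelium the system protects against peroxide and carries redox signals.

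The reductases are selenoproteins, unlike the other 8 members, and this difference is written in their coding sequences. The last 30 bases of each coding sequence are given 5′ to 3′ from the GENCODE vM21 transcripts of GRCm38, with the in-frame TGA that is read as selenocysteine in capitals. *Txnrd3*, the remaining reductase gene, is shown beside them.
Txnrd1: gacatcctccagtctggctgcTGAggttaa
Txnrd2: gagcctactgtgactggttgcTGAggctaa
Txnrd3: gacattactcagaaaggctgcTGAggctag
The *Txnrd1* sequence lies in exon 14 of 14 (chr10:82896016-82896045, plus strand) and that of *Txnrd2* in exon 17 of 17 (chr16:18477751-18477780, plus strand). The TGA is codon 498 of the 499 before the stop in *Txnrd1* and codon 526 of 527 in *Txnrd2*, and 18 of the 30 bases are the same in both.

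The thioredoxins carry their active site as a pair of cysteine codons (capitals), shown because this is the site the reductases act on.
Txn1: gctacgtggTGTggacctTGCaaaatgatc
Txn2: gcacagtggTGTggccccTGCaagatccta
The windows share 21 of 30 bases. The *Txn1* window is in exon 2 of 5 (chr4:57951812-57951841, minus strand), whereas that of *Txn2* spans exons 1 and 2 (chromosome 15, between 77924642 and 77927696, minus strand).

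The peroxiredoxins are told apart by the bases around the cysteine that meets the peroxide, whose codon is in capitals. *Prdx4*, the remaining peroxiredoxin gene, is included.
Prdx1: gactttacttttgtgTGTcccacggagatc
Prdx2: gacttcacttttgttTGCcccacggagatc
Prdx3: gatttcacatttgtgTGTcctacagaaatt
Prdx4: gatttcacctttgtgTGTccaactgaaatc
Prdx5: gcatttacacctggcTGTtctaagacccac
Prdx6: gactttaccccagtgTGCaccacagaactt
Over these 30 bases *Prdx1* shared 27 with *Prdx2*, 23 with *Prdx3* and 24 with *Prdx4*, but 20 with *Prdx6* and 15 with *Prdx5*.

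Values are FPKM (sequenced fragments relative to gene length and library depth) and were compared as log2(FPKM + 1), on which fold changes of genes with low FPKM are understated. Between 22179440 and 33603566 whole fragments per sample were recovered from the values. The 12 endothelial marker genes examined were all above a mean of 1 FPKM, led by *Cdh5* at 485.9, and their summed FPKM was 2068 to 2217 with saline and 2005 to 2091 with StcE. Those of neurons, astrocytes, and microglia and leukocytes summed to at most 0.115 FPKM in any sample, those of fibroblasts to at most 1.54 and those of pericytes and smooth muscle to at most 5.37, most of it *Acta2* (the markers *Rgs5*, *Lum*, *P2ry12* and *Tyrobp* are not listed). Fewer cells of a type and less RNA per cell cannot be told apart in bulk samples.

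The fall of *Txnrd1*, the cytosolic reductase, was the only change among the members that passed the threshold. *Txnrd1* (chromosome 10, 82833951 to 82897712) had 75.2, 74.9, 75.1, 74.9 and 74.1 FPKM in saline replicates 1 to 5. It had 67.1, 70.5, 65.2, 67.2 and 66.8 FPKM in StcE replicates 1, 2, 3, 5 and 6. Every StcE sample was below every saline sample, with StcE replicate 2 the nearest to them and StcE replicate 3 the farthest. The mean went from 74.9 ± 0.445 (SD, n = 5) to 67.4 ± 1.92 (SD, n = 5), 10.0% lower, a log2 fold change of -0.15 (95% confidence interval -0.20 to -0.10, limma adjusted p = 0.00160). The exact two-sided permutation test gave p = 0.00794, the smallest that 5 samples against 5 allow. *Txnrd1* is among the genes that the study itself named from these samples, so that its direction here is not independent evidence. 

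Across the 11062 genes averaging 1 FPKM or more, 11.9% passed the threshold of a limma adjusted p under 0.05 (6.41% lower and 5.52% higher after StcE). Of the members 1 of 10 passed, a share near that background. Groups did not overlap for 10.7% of all genes tested (5.8% lower and 4.85% higher after StcE) and for 1 of 10 members, lower after StcE. The median log2 fold change of the members was -0.020, against -6.6e-04 for all genes tested.

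**Figure D1:**
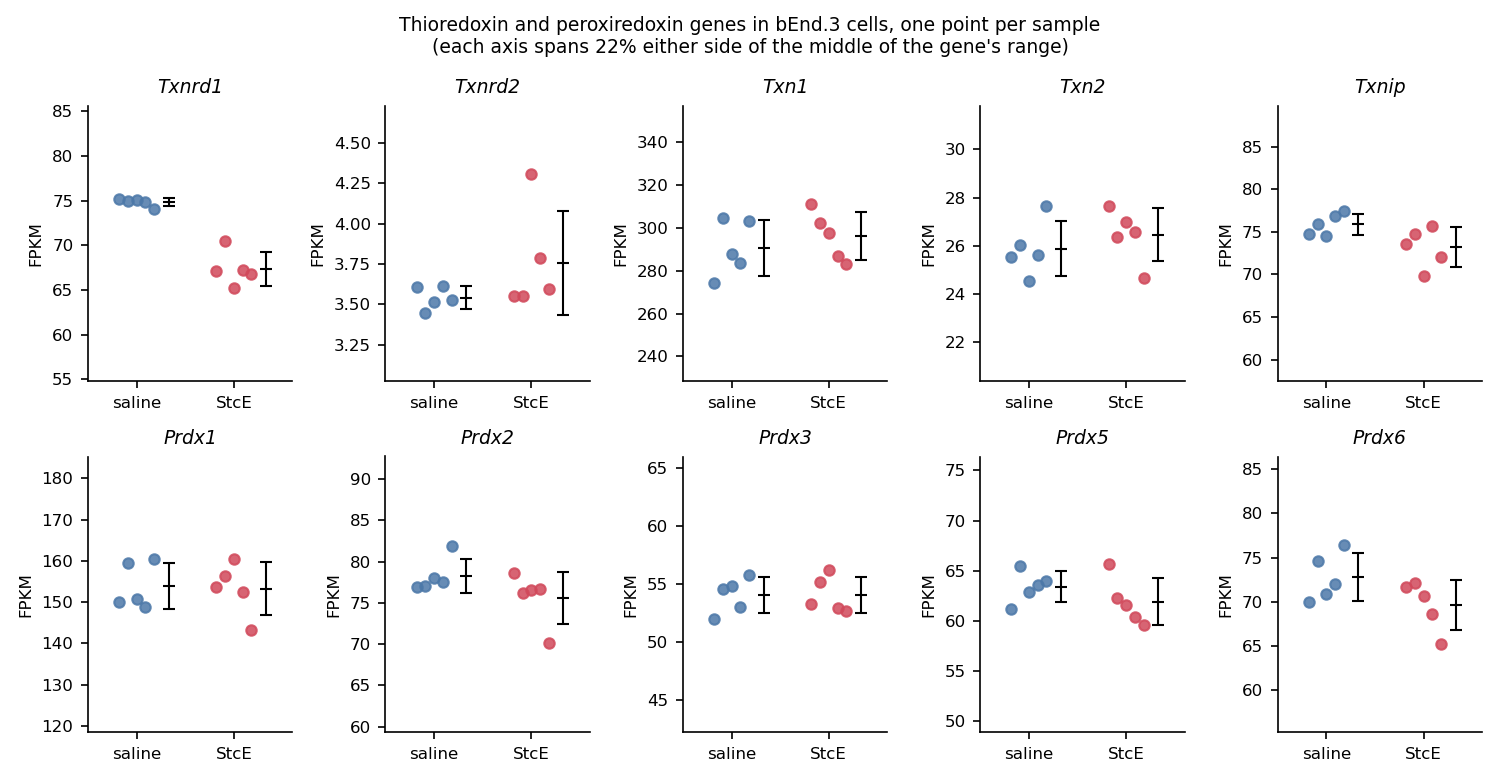
FPKM of the 10 members in 5 saline (blue) and 5 StcE (red) samples, 1 point per sample in order of replicate number, with the mean and SD in black beside them; each vertical axis covers the same relative range around the gene's own level and does not start at 0. The groups are apart for *Txnrd1* (74.1 to 75.2 with saline, 65.2 to 70.5 with StcE) and overlap for the other 9.

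The saline values of *Txnrd1* lay unusually close together. Their SD was 0.594% of the mean, where the 12173 to 16214 fragments behind them give a counting error of 0.785% to 0.906%. Only 0.0814% of the genes tested had a smaller SD of log2(FPKM + 1) among the saline samples. The StcE samples spread more, with an SD of 2.85% of the mean.

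The mitochondrial reductase *Txnrd2* (chromosome 16, 18426384 to 18479073) was the least expressed member. It had 3.61, 3.45, 3.51, 3.62 and 3.52 FPKM in saline replicates 1 to 5. It had 3.55, 3.55, 4.30, 3.79 and 3.59 FPKM in StcE replicates 1, 2, 3, 5 and 6. The groups overlapped, and StcE replicate 3 was the highest of the 10 samples. The means were 3.54 ± 0.0698 and 3.76 ± 0.321 (SD, n = 5 each), a log2 fold change of 0.065 with an interval of -0.032 to 0.16 (limma adjusted p = 0.377), and it was 0.025 without StcE replicate 3. Only 365 to 657 fragments lay behind each value, a counting error of 3.90% to 5.23% and the fewest fragments of any member. The ratio of *Txnrd1* to *Txnrd2* FPKM was 20.7 to 21.7 with saline and 15.1 to 19.8 with StcE, without overlap. The groups of *Txnrd1* alone did not overlap either, and whether the fold changes of the reductases differ was not tested. *Txnrd3*, of which little is expressed, had 1.58 ± 0.0318 and 1.75 ± 0.255 FPKM (log2 fold change 0.088, limma adjusted p = 0.376).

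The thioredoxins themselves did not pass the threshold, and their intervals held values on both sides of 0. *Txn1* (chromosome 4, 57943373 to 57956411), the main cytosolic thioredoxin, was the most highly expressed member. It had 274.4, 304.7, 287.7, 283.5 and 303.1 FPKM in saline replicates 1 to 5. It had 311.1, 302.5, 297.7, 286.9 and 283.2 FPKM in StcE replicates 1, 2, 3, 5 and 6. The ranges nearly coincided, with saline replicate 1 the lowest of the 10 samples and StcE replicate 1 the highest. The log2 fold change was 0.028 (95% confidence interval -0.050 to 0.11, limma adjusted p = 0.658).

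*Txn2* (chromosome 15, 77915047 to 77929006), the mitochondrial thioredoxin, had 25.5, 26.0, 24.5, 25.6 and 27.7 FPKM in saline replicates 1 to 5. It had 27.6, 26.4, 27.0, 26.6 and 24.7 FPKM in StcE replicates 1, 2, 3, 5 and 6, all within the saline range. Its log2 fold change was 0.031 (95% confidence interval -0.048 to 0.11, limma adjusted p = 0.625). *Txn1* stood at 10.7 to 11.7 times the FPKM of *Txn2* with saline and 10.8 to 11.5 times with StcE. The ratio of *Txnrd1* to *Txn1* FPKM was 0.258 ± 0.0126 with saline and 0.228 ± 0.00943 with StcE (SD, n = 5 each). Its groups did not overlap, as those of *Txnrd1* alone did not.

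*Txnip* (chromosome 3, 96557957 to 96561883), which holds thioredoxin in an inactive complex, had 74.7, 75.9, 74.5, 76.8 and 77.4 FPKM in saline replicates 1 to 5. It had 73.6, 74.8, 69.8, 75.7 and 72.0 FPKM in StcE replicates 1, 2, 3, 5 and 6. Of the StcE samples 3 were below the lowest saline sample, while replicates 2 and 5 lay among the saline values. The means were 75.9 ± 1.28 and 73.2 ± 2.33 (SD, n = 5 each), a log2 fold change of -0.052 with an interval of -0.11 to 0.0033 (limma adjusted p = 0.207, exact two-sided permutation p = 0.0635). *Txnip* stayed on the same side of the threshold in all 22 alternative fits, its log2 fold change lying between -0.064 and -0.035.

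**Figure D2:**
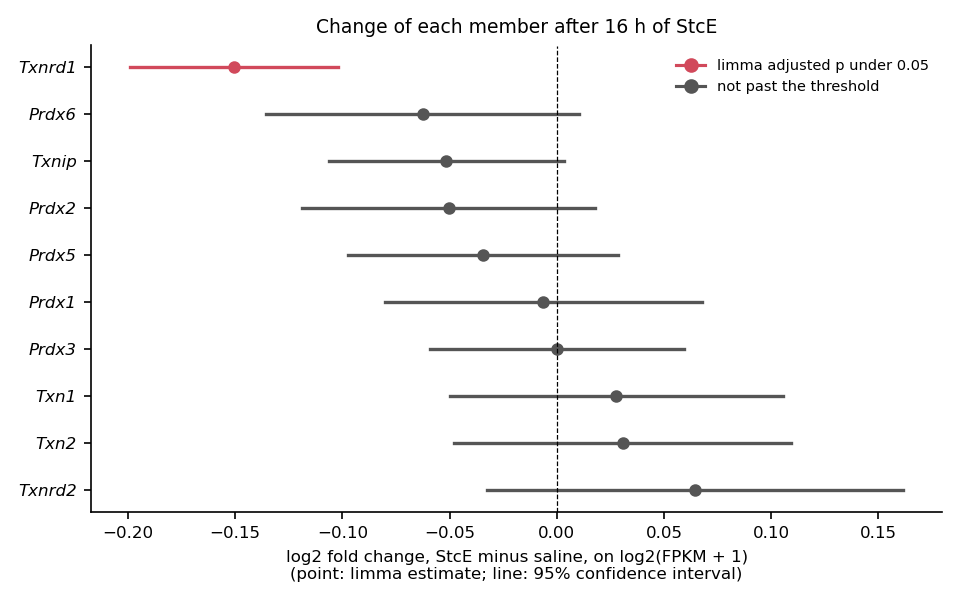
Log2 fold change of each member between StcE and saline on log2(FPKM + 1), with the limma estimate as a point and its 95% confidence interval as a line. *Txnrd1* alone is past the threshold at -0.15, and the intervals of the other 9 include 0.

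None of the 5 peroxiredoxins passed the threshold, whatever the compartment, and in each case the groups overlapped. None had an unadjusted limma p under 0.05, and none passed with voom on recovered fragments. *Prdx1* (chromosome 4, 116685544 to 116700822), an abundant cytosolic peroxidase, had 149.99, 159.6, 150.7, 148.8 and 160.5 FPKM in saline replicates 1 to 5. It had 153.7, 156.4, 160.5, 152.5 and 143.2 FPKM in StcE replicates 1, 2, 3, 5 and 6. StcE replicate 6 was the lowest of all samples, and the means of 153.9 ± 5.63 and 153.2 ± 6.39 (SD, n = 5 each) differed by 0.424% (log2 fold change -0.0063, 95% confidence interval -0.080 to 0.068, limma adjusted p = 0.929). Its sign turned in 8 of 22 alternative fits.

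*Prdx2* (chromosome 8, 84969587 to 84974834), the other typical cytosolic peroxidase, had 77.0, 77.0, 78.1, 77.5 and 81.9 FPKM in saline replicates 1 to 5. It had 78.6, 76.2, 76.5, 76.7 and 70.2 FPKM in StcE replicates 1, 2, 3, 5 and 6. Of the StcE samples 4 were below the lowest saline sample, but StcE replicate 1 lay above 4 saline samples. The log2 fold change was -0.050 (95% confidence interval -0.12 to 0.018, limma adjusted p = 0.323), and it was -0.024 without StcE replicate 6. *Prdx6* (chromosome 1, 161240112 to 161251219) had 70.0 to 76.4 FPKM with saline (median 72.1) and 65.2 to 72.1 with StcE (median 70.6), again with StcE replicate 6 lowest. Its log2 fold change was -0.063 (95% confidence interval -0.14 to 0.010, limma adjusted p = 0.250).

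The mitochondrial *Prdx3* (chromosome 19, 60864051 to 60874556) had 51.9 to 55.8 FPKM with saline (median 54.6) and 52.6 to 56.2 with StcE (median 53.2). Both means were 54.0 FPKM, with SDs of 1.54 and 1.58 (n = 5 each), and the 95% confidence interval of the log2 fold change was -0.059 to 0.059. *Prdx5* (chromosome 19, 6906697 to 6910106), found in mitochondria, peroxisomes and cytosol, had 61.2 to 65.4 FPKM with saline (median 63.6) and 59.6 to 65.7 with StcE (median 61.6). The log2 fold change of *Prdx5* was -0.035 (95% confidence interval -0.098 to 0.028, limma adjusted p = 0.477). *Prdx4*, the peroxiredoxin of the endoplasmic reticulum, had 35.7 ± 0.853 and 33.9 ± 2.13 FPKM (log2 fold change -0.073, limma adjusted p = 0.248). It was past the threshold in 1 of 22 alternative fits, the one without StcE replicate 1 (limma adjusted p = 0.0436). With other samples left out the limma adjusted p reached 0.452.

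Several members were high or low in the same samples. StcE replicate 6 was the lowest StcE sample for 7 members (*Txn1*, *Txn2* and all 5 peroxiredoxins), where it was the lowest for 24.7% of all genes tested. Saline replicate 5 was the highest saline sample for 6 members, against 21.5% of all genes tested, and saline replicate 1 the lowest for 5, against 17.3%. The depth of these libraries was 24082990, 23244121 and 29408199 fragments, and saline replicate 1 was the deepest of the saline libraries. The part of depth in these values was not tested. *Txnrd1* was highest in saline replicate 1 and lowest in saline replicate 5. Its saline SD of 0.594% of the mean lay below the counting error of 0.785% to 0.906%, so this order carries little information. In StcE replicate 6 *Txnrd1* had 66.8 FPKM, with only StcE replicate 3 lower.

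**Figure D3:**
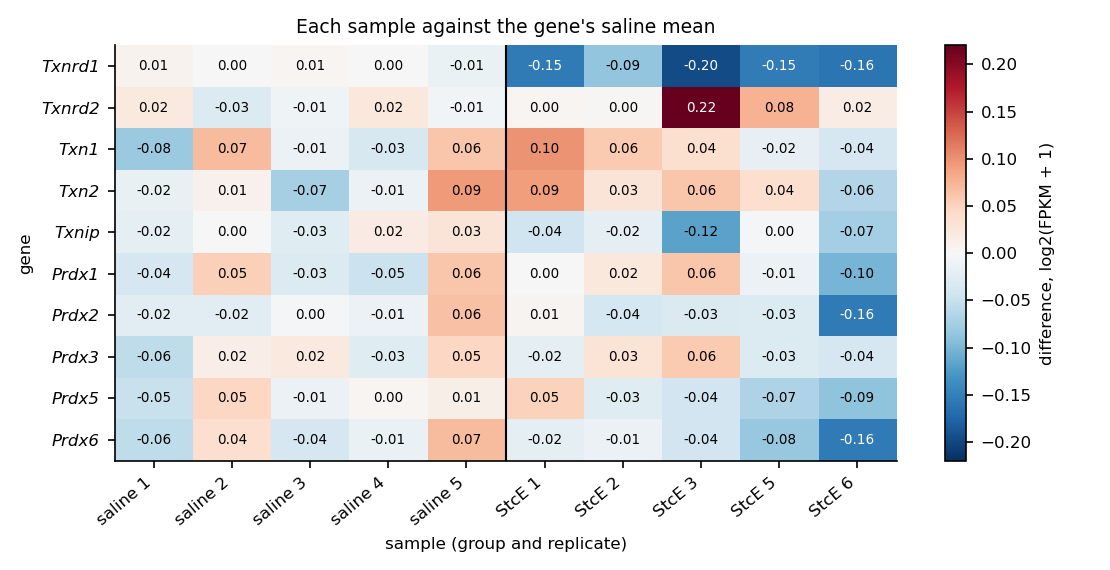
Difference of each sample (column) from the gene's saline mean on log2(FPKM + 1), for the 10 members (rows), with the value printed in each cell. The *Txnrd1* row runs from -0.20 to -0.09 in every StcE sample, whereas the column of StcE replicate 6 is at -0.16 for both *Prdx2* and *Prdx6*.

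FPKM here divides by all exon bases of a gene, which can exceed its main transcript. They number 7086 for *Txnrd1*, whose main transcript has 3531 bases, and 1051 for *Txn1*, whose main transcript has as many. Levels, shares and ratios between genes are thus approximate. By FPKM *Txn1* came first with a saline mean of 290.7, followed by *Prdx1* at 153.9. The next 4, *Prdx2* (78.3), *Txnip* (75.9), *Txnrd1* (74.9) and *Prdx6* (72.8), had saline ranges that overlapped from neighbour to neighbour. *Prdx5* (63.4), *Prdx3* (54.0), *Txn2* (25.9) and *Txnrd2* (3.54) followed without overlap in the saline samples. *Txnrd1* was above *Prdx6* in 4 of 5 saline samples and in 1 of 5 StcE samples. All members but *Txnrd2* were expressed above 80.2% or more of the genes tested, and *Txnrd2* above 25.9%.

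The summed FPKM of the 10 members was 893.2 ± 25.9 with saline and 881.4 ± 26.1 with StcE (SD, n = 5 each), and that of the 5 peroxiredoxins 422.4 ± 11.9 and 414.4 ± 14.3, with overlap in both. *Txn1* made up 31.8% to 33.3% of the sum with saline and 32.9% to 34.3% with StcE. The 3 mitochondrial members (*Txnrd2*, *Txn2* and *Prdx3*) made up 9.17% to 9.41% and 9.32% to 9.84%. *Prdx5*, found in mitochondria and elsewhere, is not counted in this share.

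Some fragments of the members could belong to other genes. Processed pseudogenes matched 29.3% of the *Txn1* transcript (*Txn-ps1*), 26.0% of *Prdx1* (*Gm21399* and *Gm7204*) and 37.0% of *Prdx2* (*Tdpx-ps1*) at 95% identity or more. Of these *Gm21399* was listed at a mean of 6.24 FPKM and the others below 1 FPKM. On the opposite strand, *Trmt112* overlaps 19.1% of the exon length of *Prdx5*, *Gm15441* 19.4% of *Txnip*, and *Rnaseh2a* and *Junb* 5.80% and 5.67% of *Prdx2*. The libraries keep the strand, but the sources used here do not say whether the counting did. *Txnrd1*, *Txn2*, *Prdx3* and *Prdx6* had neither a copy nor an overlap of this kind.

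Among the promoters (300 bases around a start site, from RefSeq on GRCm38.p6), the letters TGACNNNGC were searched for on both strands. They are the core of the antioxidant response element that NRF2 binds. Of 11 promoters listed for 9 members (all but *Prdx6*), 2 held a match, 1 of the 3 of *Txnrd1* and that of *Prdx1*. Of all 32851 promoters, 12.4% held it. Both windows are shown with the match, which reads on the opposite strand, in capitals, because 1 of these genes fell and the other did not pass the threshold.
Txnrd1: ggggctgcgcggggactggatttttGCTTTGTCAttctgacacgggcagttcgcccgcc
Prdx1: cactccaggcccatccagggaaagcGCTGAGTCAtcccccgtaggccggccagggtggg
The *Txnrd1* window is chr10:82859089-82859147 and that of *Prdx1* chr4:116685441-116685499, both on the plus strand. *Srxn1*, the enzyme that restores overoxidised peroxiredoxins, is a known NRF2 target. It had 28.6 ± 1.02 FPKM with saline and 29.6 ± 0.819 with StcE (SD, n = 5 each, log2 fold change 0.052, limma adjusted p = 0.272).

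The neighbouring pathways were described with 6 lists of genes, of which 59 of 65 genes were tested. In all, 4 were lower and 7 higher past the threshold (18.6%, against 11.9% of all genes tested), and the median log2 fold change over the 59 was -0.0016. Of 17 other thioredoxin-fold genes, 1 was lower and none higher past the threshold. This was *Txndc5*, a disulfide isomerase of the endoplasmic reticulum, which went from 36.9 ± 1.29 to 31.4 ± 1.28 FPKM (log2 fold change -0.23, limma adjusted p = 0.00139) without overlap. The median of the list was 0.0029. *Tmx1*, named after its values were seen, was past the threshold and higher when saline replicate 2 was left out (limma adjusted p = 0.0490, against 0.211 with all samples). No other alternative fit called *Tmx1* (limma adjusted p from 0.122 with sample weights to 0.392 without saline replicate 3).

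Of 12 clients, partners and repair enzymes, 2 were higher and none lower past the threshold. *Apex1*, a DNA repair and redox protein, went from 19.0 ± 0.943 to 21.8 ± 0.711 FPKM (log2 fold change 0.20, limma adjusted p = 0.00452). *Rrm2*, a subunit of the ribonucleotide reductase that thioredoxin reduces, went from 87.2 ± 2.89 to 94.4 ± 3.92 FPKM (log2 fold change 0.11, limma adjusted p = 0.0451). The methionine sulfoxide reductase *Msrb3* (log2 fold change -0.13, limma adjusted p = 0.0520) and the sestrin *Sesn2* (-0.13, 0.0526), both named after their values were seen, narrowly missed the threshold. Both were past it with voom on recovered fragments. *Msrb3* also passed without saline replicate 4 (limma adjusted p = 0.0365) or 5 (0.0408), with robust eBayes (0.0477) and with sample weights (0.0393). It passed too in the 8 samples whose replicate numbers occur in both groups (0.0438, without a block). *Sesn2* also passed without StcE replicate 5 (limma adjusted p = 0.0406) and with scaling by total fragments (0.0467). The call of *Rrm2* was lost without any 1 of saline replicates 1, 2, 3 and 4 and StcE replicates 1, 2, 3 and 5, with limma adjusted p up to 0.0978, and without a filter on low values (0.112).

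Among 6 tested relatives of *Txnip* and the factors that read glucose, *Arrdc4*, an arrestin-domain gene induced with *Txnip* by glucose, fell from 2.55 ± 0.177 to 2.07 ± 0.141 FPKM (log2 fold change -0.21, limma adjusted p = 0.0163) without overlap, and the other 5 did not pass. Of these *Mlxip*, named after its values were seen, was past the threshold and lower without StcE replicate 6 (limma adjusted p = 0.0245, against 0.1002 with all samples). It also passed in the 8 samples whose replicate numbers occur in both groups (0.0387, without a block). No other alternative fit called *Mlxip* (limma adjusted p from 0.0544 with voom on recovered fragments to 0.230 without a filter on low values). In the same 8 samples the limma adjusted p of *Arrdc4* was 0.0514 without a block and 0.137 with the replicate block. None of the 8 glutaredoxin and glutathione reduction genes passed in limma, none had an unadjusted p under 0.05 and none passed with voom on recovered fragments, and their log2 fold changes lay between -0.027 and 0.057. Among these are *Gsr*, the glutathione reductase, at 26.7 and 26.3 FPKM, and *Gclm*, a subunit of the enzyme that limits glutathione synthesis, at 21.0 and 20.6 FPKM (saline and StcE means), both named after their values were seen.

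The list of NADPH supply, the electron source of the reductases, had 4 higher and 1 lower of 9 tested, with a median of 0.063. *Idh1*, a cytosolic isocitrate dehydrogenase, rose from 10.2 ± 0.455 to 15.8 ± 0.709 FPKM (log2 fold change 0.58, limma adjusted p = 1.8e-06). Smaller rises were those of *Pgd* (log2 fold change 0.13) and *Tkt* (0.12), both of the pentose phosphate pathway, and of *Me1* (0.098), a malic enzyme named outside the rule, whose call was lost without any 1 of saline replicates 1, 2 and 4 and StcE replicate 3 (limma adjusted p up to 0.0652). *Idh2*, the mitochondrial isocitrate dehydrogenase, fell from 16.2 ± 0.330 to 14.5 ± 1.05 FPKM (log2 fold change -0.16, limma adjusted p = 0.0305), with overlap between groups. That call was lost without any 1 of saline replicates 1, 2, 3 and 5 and StcE replicates 3, 5 and 6, with limma adjusted p up to 0.0778, and without a filter on low values (0.0843).

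Of 7 other scavengers of peroxide and superoxide, *Gpx1*, a selenium-dependent glutathione peroxidase, was lower (332.9 ± 7.95 against 167.4 ± 3.34 FPKM, log2 fold change -0.99, limma adjusted p = 1.8e-10), and *Gpx8*, an endoplasmic reticulum peroxidase without selenium, was higher (28.6 ± 2.26 against 35.4 ± 2.35 FPKM, log2 fold change 0.30, limma adjusted p = 0.00626). *Gpx1* is likewise among the genes that the study named from these samples.

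**Figure D4:**
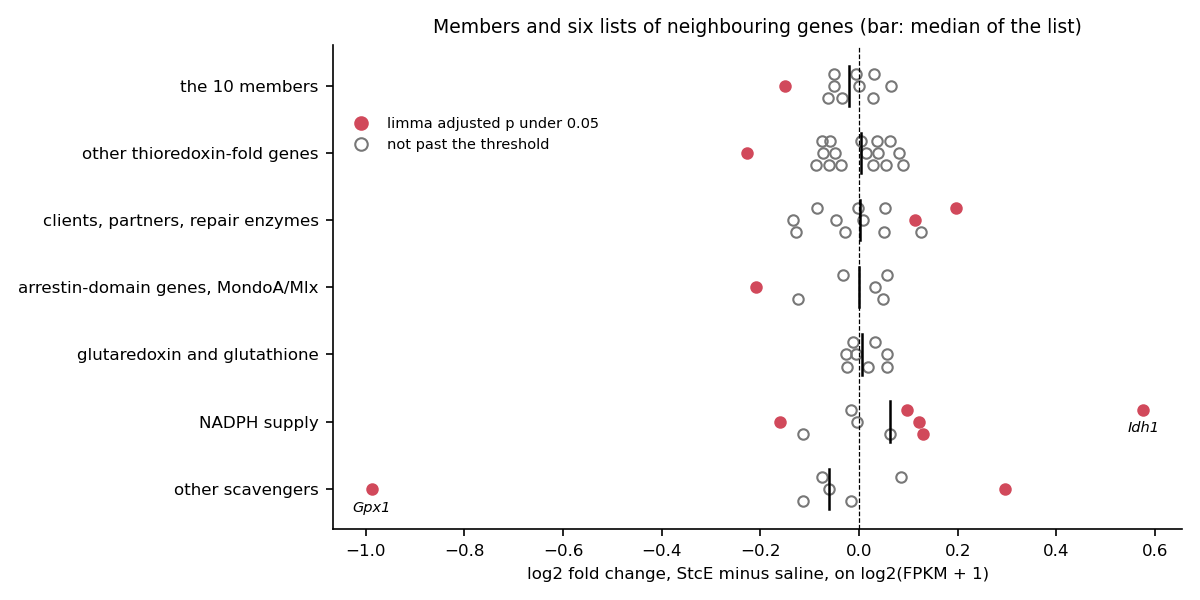
Log2 fold change between StcE and saline on log2(FPKM + 1) for the members and for 6 lists of neighbouring genes, 1 point per gene tested, filled where past the threshold, with a bar at the median of each list. The members lie between -0.15 and 0.065, and the points farthest from 0 are *Gpx1* at -0.99 and *Idh1* at 0.58.

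The genes whose pattern over the 10 samples was most like that of *Txnrd1* were *Ecm1*, *Vps41* and *Jak1*, with a root mean square difference of 0.0193, 0.0193 and 0.0209 between the centred log2(FPKM + 1) values. Their log2 fold changes were -0.13, -0.14 and -0.13, each past the threshold in limma. They were picked for nearness in these same samples, so that a similar fold change follows from the choice. The genes nearest to *Txnip* were *Rad21* (0.0135), *Cenpn* (0.0174) and *Lhfp* (0.0183). None of them was past the threshold in limma, which the choice likewise favours.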

How the data were processed

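RNA from 5 saline and 5 StcE samples of bEnd.3 cells was sequenced as strand-specific paired-end libraries. The authors aligned trimmed reads to GRCm38 and deposited FPKM with 1 column per sample. The submitters' processing notes name HISAT2 2.0.5, featureCounts 1.5.0-p3 and DESeq2 1.32.0, and the annotation release is not given in the sources used here. Of 49898 rows, 22874 were empty.

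With exon lengths from GENCODE vM21, 96.6% of the FPKM above 0 were whole fragments (within 0.02 of a fragment, plus 1e-05 of the value), as were the members in every sample. The value of 1 fragment followed the median-of-ratios size factor of the sample, so the deposited FPKM were already normalised between samples. Intervals of counting error cover counting only.

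The log2(FPKM + 1) values of the 11062 genes averaging 1 FPKM or more entered limma 3.58.1, run in R 4.3.3 (eBayes with trend, treatment as the sole term, Benjamini-Hochberg adjustment over all genes tested, threshold 0.05). Members were also tested by exact two-sided permutation over 252 arrangements. No pair of replicates was as close as counting error allows (chi-square over its degrees of freedom at least 3.21). Copies were sought with BLAST (at least 95% identity over 150 bases). The procedure was tested on simulated data, with normal values drawn independently for each gene and sample. Structure shared between genes or replicates was thus not covered.

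The members and lists were chosen with earlier results of these data known. The genes named are the 10 members, *Prdx4*, *Srxn1* and *Txnrd3*, up to 3 genes per list and direction with the largest change past the threshold, and the 3 genes most like *Txnrd1* and *Txnip*. *Me1*, *Gsr*, *Gclm*, *Msrb3*, *Sesn2*, *Tmx1* and *Mlxip* were named outside this rule after their values were seen. Lists are described by counts and medians, without a set test.

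Alternatives were 0.1 as the pseudocount or as the minimum mean FPKM, testing all genes, median ratio or upper quartile scaling, eBayes without trend or robust, sample weights, a replicate block over 8 samples, those 8 without it, and each sample left out. Scaling by total fragments and limma's voom on recovered fragments were added after seeing the data.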

Additional observations from a re-analysis of the deposited data

Results flagged for a closer look

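A sample stood apart from the other 4 of its group, by a gap that was large against the group's range, in 4 of the 48 sets of values examined, where chance gives about 2.4. Saline replicate 5 held 81.9 FPKM of *Prdx2*, the other saline samples 77.0 to 78.1. StcE replicate 6 held 70.2 FPKM of *Prdx2*, the other StcE samples 76.2 to 78.6. The mitochondrial members (*Prdx5* not counted) made up 9.17% of the summed FPKM of the members in saline replicate 2, against 9.35% to 9.41% in the others. The ratio of *Prdx1* to *Prdx2* was 2.07 in saline replicate 2, against 1.92 to 1.96 in the others.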

How the results depend on the processing

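The direction and the side of the threshold were kept in 207 of 220 refits of the members (22 alternatives for each of 10 genes). *Txnrd1* kept a log2 fold change of -0.17 to -0.14 and was past the threshold in all but 1 of them. The exception was the replicate block over 8 samples (log2 fold change -0.15, limma adjusted p = 0.0583), against 0.0109 in the same samples without it and 5.9e-04 to 0.00574 when each sample in turn was left out. The deviations of same-numbered samples correlated between -0.097 and 0.054, and none of them correlated best with its own number. The labels do not say whether the numbers mark a shared culture or day, and so few correlations cannot settle it.

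The other 12 were changes of sign near 0, none past the threshold. *Prdx1* was at 0.0033 with array weights, 0.0058 with the block and in its 8 samples without it, 0.0023 with total fragments and 0.0031 with voom, and between -0.023 and 0.018 with 1 sample left out. *Prdx3* was between -0.014 and 0.012 with 1 sample left out.

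The number of genes past the threshold, 1320 (709 lower, 611 higher), was 801 without a filter (409 lower, 392 higher) and 349 with the block (162 lower, 187 higher). It was 452 lower in the 8 samples without the block. With 1 sample left out it was 793 to 1255 (409 to 667 lower, 384 to 588 higher), the least without StcE replicate 3, and it was 838 without saline replicate 1. Of the 11 called genes in the neighbouring lists, the block left 2 lower and 1 higher. The cause was not tested. Median ratio scaling changed little, as the deposited FPKM already carry it. Among the 10 members depth limits *Txnrd2* most, with at least 365 fragments per sample.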
